A study of Mus musculus with 22 samples.

Results

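Vps26c and the retromer, together with the sorting nexins Snx1, Snx2 and Snx27, the sorting receptor gene Sorl1 and the early endosome gene Rab5a, were examined in Ts66Yah and wild-type (wt) mice, in dissected hippocampus (HIP) and in entorhinal cortex (EC). The 10 genes were chosen by name, for the place of their products in endosomal sorting, out of 55385 genes in the count table, and all 10 were measured and tested in every comparison. The Ts66Yah line models Down syndrome through an additional, freely segregating minichromosome, by which the distal part of chromosome 16 from Mir155 onwards is present in 3 copies. The line goes back to 1 founder in which the chromosome 17 part of the parental Ts65Dn minichromosome had been removed with CRISPR/Cas9, and the wt mice were littermates with no minichromosome. All animals were adult males of a mixed B6C3B background. Bulk RNA-Seq libraries, labeled as poly(A) RNA, came from 5 wt and 6 Ts66Yah mice, each giving 1 HIP and 1 EC library. They made 22 libraries in 4 groups, with 25.9 to 50.1 M counted reads each (median 34.7 M).

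Transmembrane proteins that reach the early endosome are either passed on to lysosomes or retrieved to the cell surface or the trans-Golgi network. Retromer, built from VPS35, VPS29 and a VPS26 protein encoded by Vps26a or Vps26b, performs this retrieval, and sorting nexins bring it to membranes and to cargo. VPS26C, formerly DSCR3, is a more distant relative that works in retriever, an assembly with VPS35L and the same VPS29, which recycles another group of cargoes with the help of the CCC proteins and SNX17. SORL1 is a neuronal sorting receptor that binds the amyloid precursor protein and retromer, and RAB5A is the GTPase that defines early endosomes. Enlarged early endosomes are a known feature of neurons in Down syndrome and Alzheimer's disease.

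Vps26c was the only 1 of the 10 genes in the triplicated segment. Its gene (ENSMUSG00000022898) lies at chr16:94497783-94526830 of GRCm38 on the minus strand. Vps26a (ENSMUSG00000020078) lies at chr10:62455235-62486805 and Vps26b (ENSMUSG00000031988) at chr9:27007771-27030065, both on the minus strand. The remaining retromer genes are Vps29 on chromosome 5 and Vps35 on chromosome 8. Snx1 and Sorl1 are on chromosome 9, Snx27 is on chromosome 3 and Rab5a on chromosome 17.

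Since Vps26c was read beside its paralogs, the coding sequences show whether reads of 50 bases could be confused between them. The closest coding windows of 50 bases of Vps26a and Vps26b, from GENCODE M21 transcripts, differed at 9 positions. They lie in exon 5 of Vps26a (chr10:62468305-62468354) and exon 3 of Vps26b (chr9:27015172-27015221) of GRCm38, both on the minus strand, and capitals mark the bases that differ.
Vps26a: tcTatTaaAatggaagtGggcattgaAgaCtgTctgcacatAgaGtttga
Vps26b: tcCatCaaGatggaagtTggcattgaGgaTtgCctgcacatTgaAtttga

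Vps26c was farther from both. Its closest window to Vps26b differed at 20 of 50 positions, with 11 bases as the longest identical run between the coding sequences. It spans the junction of exons 1 and 2 of Vps26c (chr16:94512333-94526346, minus strand) and exon 1 of Vps26b (chr9:27029452-27029501, minus strand), again with the differing bases in capitals.
Vps26c: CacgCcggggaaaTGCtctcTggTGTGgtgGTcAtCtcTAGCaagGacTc
Vps26b: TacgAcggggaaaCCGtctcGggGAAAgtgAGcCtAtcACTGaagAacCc

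No stretch of 50 bases of the annotated Vps26c, Vps26a, Vps26b, Snx1 or Snx27 transcripts occurred in a transcript of another gene. For Snx2, 9.88% of such stretches were shared, 275 of them with the processed pseudogene Gm12543. Of these, 143 also occurred in a transcript of Snx30. The Snx2 count is uncertain to the degree of the 9.88%. The share was 5.78% for Vps29, mostly with Fam216a on the other strand, 4.03% for Rab5a with Pp2d1 on the other strand and 2 pseudogenes, 2.17% for Vps35 and 0.799% for Sorl1 with the antisense gene Gm16214. Whether counting used strand is not stated, so reads of these overlapping partners cannot be told apart from those of the genes.

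Vps26c had a higher level in Ts66Yah than in wt in both regions. All levels below are counts per 1 M reads (CPM) scaled by TMM unless given per kilobase of exon. In the HIP, Vps26c was at 38.6, 40.2, 37.0, 35.8 and 37.3 CPM in the 5 wt libraries. The 6 Ts66Yah libraries had 59.4, 66.2, 63.2, 55.3, 62.0 and 62.7 CPM. The groups did not overlap, with a gap from 40.2 to 55.3 CPM.

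In the EC, Vps26c was at 43.7, 45.9, 43.1, 41.4 and 40.9 CPM in wt. It was at 61.8, 64.7, 66.4, 58.5, 68.6 and 64.5 CPM in Ts66Yah, again without overlap. Ts66Yah replicate 4 was the lowest trisomic library in both regions. Vps26c was 1.63-fold higher in Ts66Yah HIP than in wt HIP (log2 0.70 ± 0.05 SE, 95% interval 0.59 to 0.81, adjusted p = 1.22e-05 by edgeR's quasi-likelihood test). In the EC the difference was 1.49-fold (log2 0.57 ± 0.06 SE, 95% interval 0.45 to 0.70, adjusted p = 0.000309 by edgeR). Of all genes tested, 0.591% passed an adjusted p of 0.05 in HIP libraries and 0.283% in EC libraries, and Vps26c was the only 1 of the 10 to do so in either region. In bulk tissue a change in RNA per cell cannot be told apart from a change in the number of cells that express the gene.

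**Figure D1:**
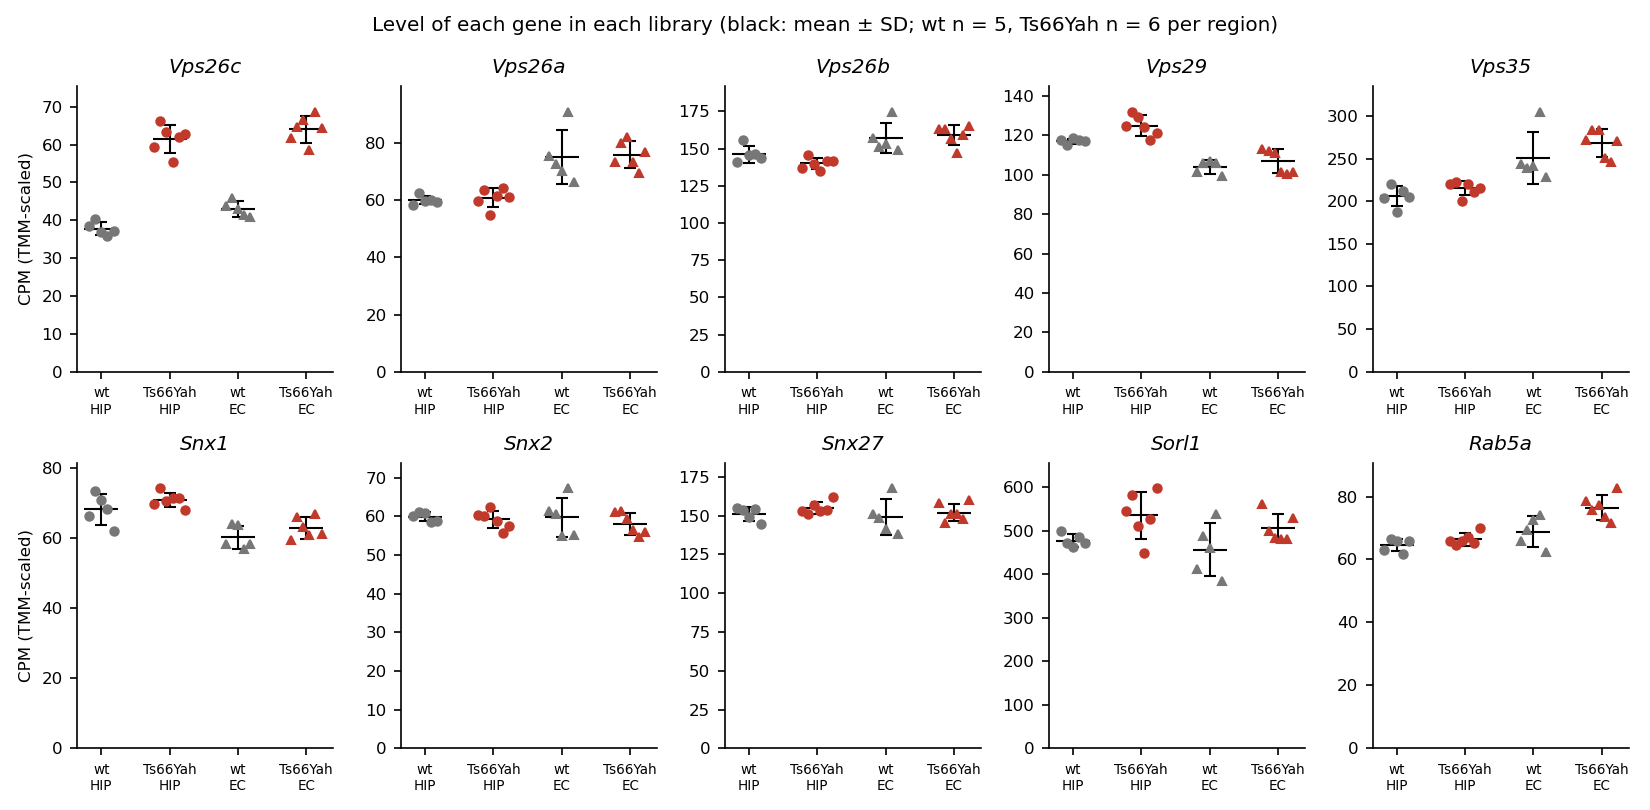
CPM (TMM-scaled, linear axis from 0) of each of the 10 genes in each library, in wt HIP, Ts66Yah HIP, wt EC and Ts66Yah EC, with gray for wt, red for Ts66Yah, circles for HIP, triangles for EC, and black bars for mean ± SD (n = 5 or 6). The genotypes separate for Vps26c in both regions, and wt EC replicate 4 stands high for Vps35 (305 CPM), Vps26a (90.9 CPM) and Sorl1 (537 CPM).

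The extra copy of the gene would by itself give 1.5-fold. In the HIP, the log2 change of Vps26c lay 0.12 above that of 1.5-fold (95% interval 0.01 to 0.23, adjusted p = 0.224 by edgeR over the 101 tested genes of the segment). In the EC it differed from 1.5-fold by -0.01 (95% interval -0.13 to 0.11, adjusted p = 0.94 over 93 genes). Neither departure passed the test. Median log2 changes of the segment were 0.59 (HIP) and 0.57 (EC), and 58 of 101 and 45 of 93 segment genes were called for genotype. Vps26c had the 20th largest log2 change of 101 segment genes for HIP and the 47th of 93 for EC. Among segment genes with at least 10 CPM it was the fourth of 59 in the HIP and the 29th of 55 in the EC.

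The 4 tested genes nearest to Vps26c all had positive log2 changes in both regions, and 3 of them passed the test in both. On one side lie Pigp, of the GPI anchor pathway, and Ttc3, an E3 ubiquitin ligase. On the other side lie the kinase gene Dyrk1a and the predicted gene Gm41505. Ttc3 changed by 0.62 (HIP) and 0.59 (EC) on the log2 scale, and Dyrk1a by 0.54 and 0.61. Pigp changed by 0.50 and 0.54. All 3 passed the test in both regions. Gm41505 passed in the HIP (0.76, adjusted p = 0.0304 by edgeR) and had a value of 0.72 in the EC (adjusted p = 0.253).

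**Figure D2:**
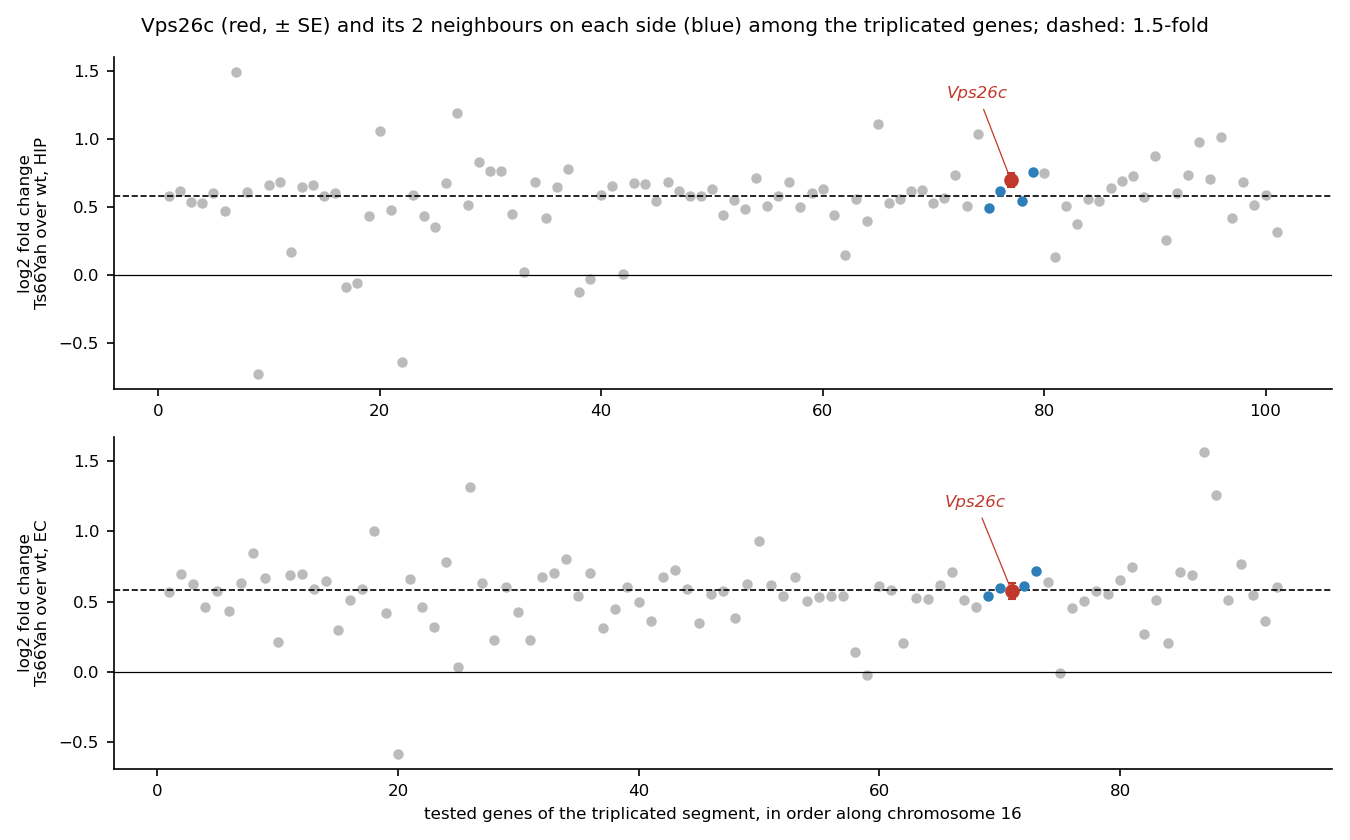
Log2 fold change of Ts66Yah over wt for the tested genes of the triplicated segment, ordered by position along chromosome 16, in the HIP (top, 101 genes) and the EC (bottom, 93 genes), with Vps26c in red (± SE), its neighbors in blue and the dashed line at 1.5-fold. Vps26c sits slightly above the line for HIP (0.70) and on it for EC (0.57).

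The retromer core genes, which are not triplicated, were not called for genotype. Vps35, the scaffold subunit, was at 187 to 220 CPM (median 205) in wt HIP and 200 to 222 CPM (median 218) in Ts66Yah HIP. In the EC it was at 229 to 305 CPM (median 241) in wt and 246 to 284 CPM (median 272) in Ts66Yah. Both pairs of groups overlapped. The log2 differences were 0.06 ± 0.05 SE for HIP (95% interval -0.04 to 0.16) and 0.09 ± 0.08 SE for EC (95% interval -0.07 to 0.25). Without wt EC replicate 4, the EC value was 0.18 (adjusted p = 0.376 by edgeR). Without wt EC replicate 5, it was 0.06 (adjusted p = 0.992 by edgeR).

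Vps26a and Vps26b, which encode the alternative VPS26 subunits of retromer, had intervals around 0. Vps26a differed by 0.02 for HIP (95% interval -0.08 to 0.12) and 0.01 for EC (-0.16 to 0.18). Vps26b differed by -0.06 for HIP (-0.14 to 0.02) and 0.02 for EC (-0.10 to 0.14). In the HIP, 3 of 6 Ts66Yah libraries were below every wt library for Vps26b, at 135, 137 and 139 CPM against 141 to 156 CPM. None of these intervals reached the 1.5-fold change of a triplicated gene.

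Vps29, the subunit shared by retromer and retriever, was at 118, 115, 118, 118 and 117 CPM in wt HIP. In Ts66Yah HIP it was at 125, 132, 130, 124, 118 and 121 CPM, and 5 of 6 libraries were above all wt libraries. The log2 difference was 0.09 ± 0.04 SE (95% interval 0.01 to 0.17, adjusted p = 0.362 by edgeR), which did not pass. The two-sided exact permutation test of this gene alone, with no adjustment, gave p = 0.0195. In the EC, wt ran from 99.2 to 107 CPM and Ts66Yah from 101 to 113 CPM, with a log2 difference of 0.03 ± 0.06 SE. In the HIP, Ts66Yah replicates 5 and 6, whose animal numbers fall in a separate range from those of the other 4, had the lowest Vps29 of their group. With that range as a block, and wt replicate 1, which falls in neither range, left out, the HIP difference was 0.08 (adjusted p = 0.474 by edgeR). What the animal numbers stand for is not given in the labels.

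As Vps26c rose and its paralogs did not pass the test, its share of the 3 VPS26 transcripts differed between genotypes. Per kilobase of exon, Vps26c made up 17.1% ± 0.555 of the summed CPM of Vps26a, Vps26b and Vps26c in wt HIP (SD, n = 5) and 25.5% ± 1.06 in Ts66Yah HIP (SD, n = 6). In the EC the share was 17.1% ± 1.49 in wt and 23.2% ± 1.01 in Ts66Yah. The share ran from 14.6% to 18.5% over all wt libraries and from 22.6% to 27.0% over all Ts66Yah libraries. These shares restate the levels above and carry no test of their own.

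The sorting nexins were not called for genotype. SNX1 and SNX2 are BAR domain proteins that bend membranes into tubules, and SNX27 ties retromer to cargo through its PDZ domain. Snx1 was at 61.9 to 73.2 CPM in wt HIP and 68.0 to 74.1 CPM in Ts66Yah HIP, a log2 difference of 0.06 ± 0.05 SE. In the EC the ranges were 56.9 to 64.0 and 59.3 to 66.8 CPM, also 0.06 ± 0.06 SE. Snx2, on chromosome 18, differed by -0.02 ± 0.04 SE (HIP) and -0.04 ± 0.07 SE (EC). Ts66Yah replicates 5 and 6 had the lowest Snx2 levels of their group in the HIP, at 55.8 and 57.5 CPM against 58.8 to 62.3 CPM, and also in the EC, at 54.6 and 55.9 CPM against 56.5 to 61.3 CPM. Snx27 differed by 0.03 in both regions, with intervals of -0.04 to 0.11 (HIP) and -0.10 to 0.15 (EC).

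Sorl1 had the widest spread of the 10 genes in Ts66Yah HIP. The 5 wt HIP libraries were at 499, 471, 463, 484 and 471 CPM. The 6 Ts66Yah HIP libraries were at 546, 582, 512, 448, 526 and 597 CPM. Thus 5 of 6 were above all wt libraries, and Ts66Yah replicate 4 was below all of them. The log2 difference was 0.16 ± 0.06 SE (95% interval 0.03 to 0.30, adjusted p = 0.324 by edgeR), which did not pass, and the exact permutation p of the gene alone was 0.0519.

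With single libraries left out, Sorl1 in the HIP differed least, by 0.13, without Ts66Yah replicate 6 (adjusted p = 0.522 by edgeR). It differed most, by 0.21, without Ts66Yah replicate 4 (adjusted p = 0.124 by edgeR). That library also had the lowest sum of the 4 hippocampal marker genes (420 CPM, against 484 to 544 CPM in the rest of the group) and the highest sum of the 3 meningeal genes (105 CPM, against 32.1 to 53.7 CPM). The part of these tissue markers in its Sorl1 level was not tested.

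In the EC, Sorl1 was at 412, 488, 459, 537 and 385 CPM in wt. It was at 560, 498, 484, 482, 481 and 528 CPM in Ts66Yah. The wt libraries (385 to 537 CPM) overlapped the trisomic ones (481 to 560 CPM), and only Ts66Yah replicate 1 was above all wt libraries. The log2 difference was 0.15 ± 0.08 SE (95% interval -0.03 to 0.32, adjusted p = 0.872 by edgeR). It was 0.22 without wt replicate 4 and 0.09 without wt replicate 5, with adjusted p-values of 0.403 and 0.962 by edgeR.

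Rab5a was at 63.2, 66.5, 65.8, 61.8 and 65.9 CPM in wt HIP and at 64.5 to 70.1 CPM in Ts66Yah HIP, a log2 difference of 0.04 ± 0.04 SE. In the EC it was at 65.7, 69.5, 72.4, 74.2 and 62.2 CPM in wt. The Ts66Yah EC libraries were at 78.5, 75.7, 77.4, 73.5, 71.5 and 82.6 CPM, and 4 of 6 were above all wt libraries. The log2 difference of 0.15 ± 0.06 SE (95% interval 0.02 to 0.28, adjusted p = 0.722 by edgeR) did not pass, and the exact permutation p of the gene alone was 0.0173.

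Among the 9 genes outside the segment, 0 were called in either region by edgeR, and 0 by DESeq2 or limma voom. At an unadjusted p of 0.05, 2 of 9 passed for HIP (Vps29 and Sorl1) and 1 of 9 for EC (Rab5a), where 11.9% and 6.25% of all tested genes did. The log2 differences of the 9 genes ran from -0.06 to 0.16 in the HIP (median 0.04) and from -0.04 to 0.15 in the EC (median 0.03), beside medians within 0.01 of 0 over all tested genes. The 95% intervals of all 9 genes lay between -0.14 and 0.30 for HIP and between -0.18 and 0.32 for EC, short of the 0.59 of a 1.5-fold change.

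**Figure D3:**
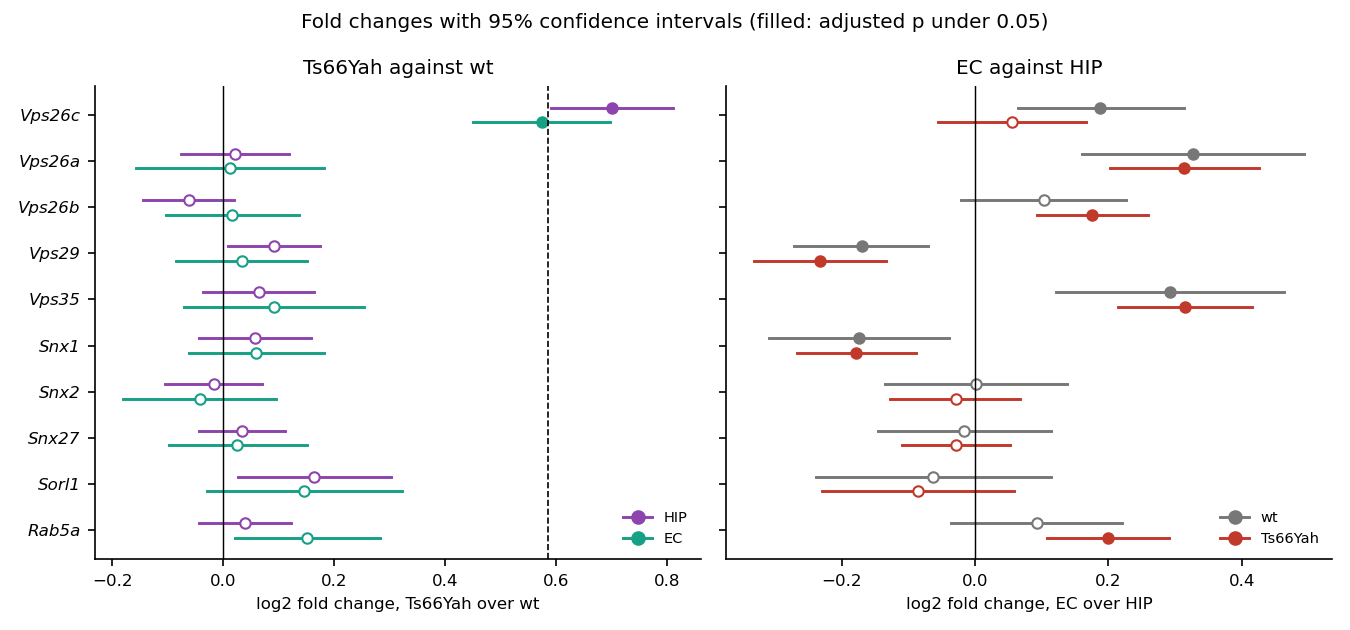
Log2 fold changes of the 10 genes with 95% confidence intervals, Ts66Yah over wt in the HIP and EC (left, dashed line at 1.5-fold) and EC over HIP in wt and Ts66Yah (right), with filled points for an adjusted p under 0.05. For genotype only Vps26c is filled (0.70 and 0.57), and for region Vps26a and Vps35 are higher and Vps29 and Snx1 lower in the EC in both genotypes.

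The other genes of the pathway were taken from 8 lists with 72 genes, of which 71 were tested in each region. Ccdc22 was too low to test. App, the amyloid precursor protein and a SORL1 cargo that is itself triplicated, was the only 1 called. Its log2 rise was 0.61 for the HIP (adjusted p = 1.22e-05) and 0.57 for the EC (adjusted p = 0.000198, both by edgeR). None was called lower. At an unadjusted p of 0.05, 5 of 71 passed for HIP and 4 of 71 for EC, where 11.9% and 6.25% of all tested genes did, so the lists did not exceed all genes. The median log2 difference over the 71 genes was 0.00 (HIP) and 0.01 (EC).

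The partners of VPS26C in retriever and CCC, 15 genes with 14 tested, had a median of -0.01 (HIP) and -0.04 (EC). Vps35l, the retriever scaffold, had the smallest p in the HIP with a value of 0.12 (adjusted p = 0.296 by edgeR). Snx17, its cargo adaptor, had the smallest in the EC with -0.17 (adjusted p = 0.722 by edgeR). Neither passed.

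The 8 retromer partners and the 5 WASH genes, which build actin on endosomes, had 0 called of 13 by edgeR. Snx32 had the smallest p of both lists for HIP, with a value of 0.15 (adjusted p = 0.104 by edgeR), and Snx6 for EC, with -0.11 (adjusted p = 0.87 by edgeR). Washc3 was at 0.11 in the HIP and Washc4 at 0.065 in the EC. Among the 4 other VPS10 domain receptors, the relatives of SORL1, Sorcs1 had the smallest p in both regions, with values of 0.24 for HIP (adjusted p = 0.446) and 0.12 for EC (adjusted p = 0.937, both by edgeR). The 15 genes of RAB5 regulation had medians of 0.00 and 0.01, with Ankfy1 at 0.11 in the EC. Vps16, of the HOPS and CORVET tethers, was at 0.08 (HIP) and 0.13 (EC). Of the GARP and EARP tethers, Vps51 was at -0.20 in the HIP and Vps50 at 0.04 in the EC.

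**Figure D4:**
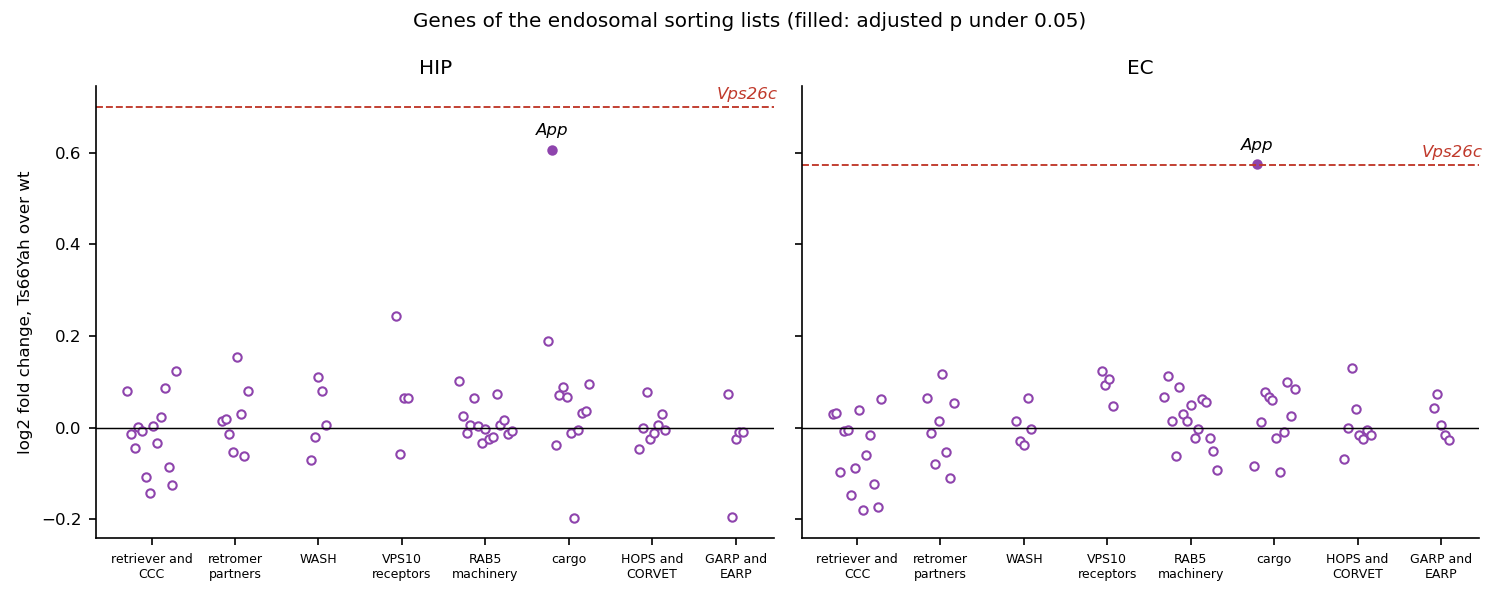
Log2 fold change of Ts66Yah over wt for each tested gene of the 8 endosomal sorting lists in the HIP (left) and the EC (right), 1 point per gene, filled for an adjusted p under 0.05, with the dashed red line at the value of Vps26c. Only App, at 0.61 and 0.57, lies near Vps26c, and the other 70 genes lie between -0.20 and 0.24.

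Between the regions the retromer genes differed more than between the genotypes. The region tests below did not pair the HIP and EC libraries of a mouse unless the mouse is named as a block. In wt, 5 of the 10 genes were called between EC and HIP, where 47.7% of all genes were. In Ts66Yah, 6 of 10 were called, where 54% of all genes were. These shares are near those of all genes. Vps26a and Vps35 were higher in the EC, and Vps29 and Snx1 lower, in both genotypes.

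Vps35 was 1.22-fold higher in the EC in wt (adjusted p = 0.00834) and 1.24-fold in Ts66Yah (adjusted p = 5.19e-05, both by edgeR), and was higher in the EC in 11 of 11 mice. Vps26a was 1.25-fold and 1.24-fold higher (adjusted p = 0.00358 and 0.000142 by edgeR), also in 11 of 11 mice, with EC to HIP ratios from 1.08 to 1.51. Without wt replicate 4, whose EC library was the highest for both genes, the wt differences were 0.23 (log2) for Vps35 and 0.25 for Vps26a, and both still passed.

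Vps29 fell by 0.17 on the log2 scale from HIP to EC in wt (adjusted p = 0.00855) and by 0.23 in Ts66Yah (adjusted p = 0.000632, both by edgeR). Its level was lower in the EC in 11 of 11 mice, with ratios from 0.815 to 0.921. Thus the subunits of retromer did not differ in the same direction between the regions. Snx1 fell by 0.17 in wt (adjusted p = 0.0351 by edgeR) and by 0.18 in Ts66Yah (adjusted p = 0.00233 by edgeR), also lower in 11 of 11 mice. In the unpaired fit, the wt call for Snx1 was lost without wt replicate 1, 2, 3 or 4, with values of -0.17, -0.17, -0.18 and -0.15. With the mouse as a block and all wt mice kept, Snx1 passed (adjusted p = 0.019 by edgeR).

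Vps26b and Rab5a were called in Ts66Yah, where they were 1.13-fold (adjusted p = 0.00141) and 1.15-fold (adjusted p = 0.00119, both by edgeR) higher in the EC. In wt the values were 0.10 (log2, adjusted p = 0.158) and 0.09 (adjusted p = 0.22), and 10 of 11 mice had more of each gene in the EC. Vps26c itself was 1.14-fold higher in wt EC (log2 0.19 ± 0.06 SE, adjusted p = 0.0162 by edgeR), in 5 of 5 wt mice. In the unpaired fit this call was lost without wt replicate 1 or 3, with adjusted p-values of 0.0531 and 0.068 by edgeR. With the mouse as a block and all wt mice kept, Vps26c passed (adjusted p = 0.0122 by edgeR). In Ts66Yah the difference was 0.06 ± 0.05 SE (adjusted p = 0.385 by edgeR). Snx2, Snx27 and Sorl1 were not called between the regions in either genotype, with log2 values from -0.09 to 0.00.

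**Figure D5:**
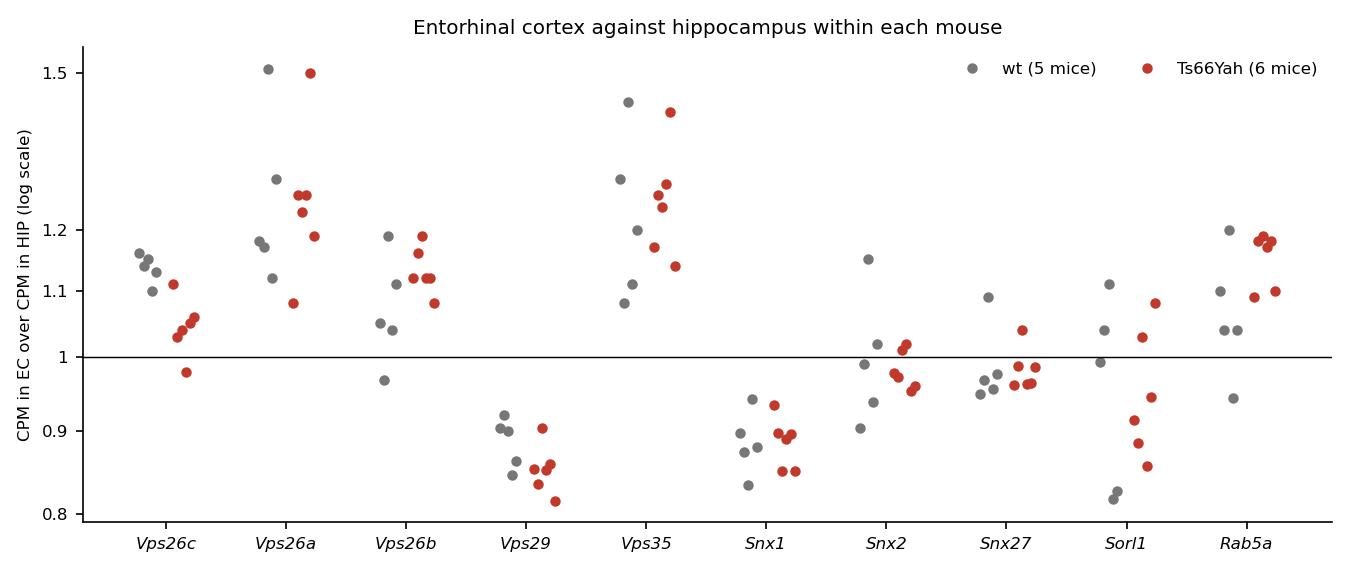
Ratio of CPM in the EC to CPM in the HIP of the same mouse (log axis) for the 10 genes, 1 point per mouse, gray for 5 wt and red for 6 Ts66Yah mice. All 11 mice lie above 1 for Vps26a and Vps35 and below 1 for Vps29 and Snx1, while for Sorl1 4 mice lie above and 7 below.

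The genotype effect was not shown to differ between the regions for any of the 10 genes. For Vps26c the interaction was -0.13 ± 0.07 SE (log2, adjusted p = 1 by edgeR), the difference between 0.57 in the EC and 0.70 in the HIP. For Rab5a it was 0.11 ± 0.07 SE, and for Sorl1 -0.02 ± 0.11 SE, also with adjusted p-values of 1 by edgeR. Over all genes, 0% passed for the interaction by edgeR, with 388 of 19074 at an unadjusted p of 0.05, and 0 genes passed by DESeq2 or limma voom.

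The libraries matched their labeled regions in most of the markers. In wt, 3 of 4 hippocampal marker genes were lower in the EC, among them Prox1 of dentate granule cells (log2 -3.35), and 3 of 4 cortical ones were higher, among them Cux2 (1.70). The exceptions were Wfs1, a hippocampal marker that was higher in the EC (0.425), and Fezf2, a cortical marker with a value of -0.32 (adjusted p = 0.054 by edgeR), opposite in sign to the other cortical genes. The summed level of 4 oligodendrocyte genes was 6590 to 9620 CPM (HIP) and 1260 to 3180 CPM (EC), and that of 3 choroid plexus genes 109 to 3240 and 8.42 to 40.2 CPM. The 6 neuronal genes summed to 6440 to 7200 CPM (HIP) and 8040 to 8970 CPM (EC). The regions thus differ in these cell type markers as well as in the genes above. The part of the markers in the regional differences was not tested. For genotype none of the 41 marker genes was called by edgeR, and none was at 0 in any library.

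Of the pathway lists, 24 of 71 genes were higher and 11 lower in wt EC than in wt HIP, and 24 and 13 in Ts66Yah, where 47.7% and 54% of all tested genes were called in either direction. The lists were near all genes in the share called in either direction, but not in the split by direction. Of all 17935 genes tested in wt, 4193 were higher and 4360 lower in the EC. In Ts66Yah these were 4767 and 4969 of 18043. The lists thus had more higher than lower genes in both genotypes, while all genes had slightly more lower ones. This difference in direction was not tested, and the genes below are given by their values only. Among the relatives of SORL1, Sorcs1 was higher in the EC by 1.54 (log2, wt) and 1.42 (Ts66Yah) and Sorcs3 by 0.49 and 0.53. Of the VPS26C partners, Commd9 (0.40 and 0.29) and Commd10 (0.27 and 0.21) were higher, whereas Ccdc93, which links CCC to WASH, was lower (-0.41 and -0.46). Washc2, the retromer-binding subunit of WASH, was also lower (-0.38 and -0.40), as were Tbc1d5 (-0.32 and -0.35) and Ankrd27 (-0.34 and -0.29), both of which bind retromer. Other genes of these lists went the other way. Of the 8 retromer partners, 2 were called higher and 2 lower in wt, and 1 and 2 in Ts66Yah. Of the 5 WASH genes, 1 was called higher and 1 lower in wt, and 0 and 2 in Ts66Yah. Of the 14 tested VPS26C partners, 6 were called higher and 2 lower in wt, and 4 and 3 in Ts66Yah. Of the HOPS subunits, Vps18 (0.34 and 0.40) and Vps33a (0.33 and 0.32) were higher. Among the 8 HOPS and CORVET genes, 4 were called higher and 1 lower in wt, and 4 and 0 in Ts66Yah.

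Per kilobase of exon, Sorl1 had the highest level of the 10 genes and Vps26c the lowest in wt. In wt HIP, Sorl1 was at 42.2 ± 1.25 CPM per kilobase (SD, n = 5), followed by Vps26b at 28.7 ± 1.09. The ranges of Vps35 (23.1), Snx2 (22.2), Snx27 (22) and Vps26a (21) overlapped from 1 to the next. Below them came Vps29 (19.1), Snx1 (15.7), Rab5a (12.3) and Vps26c (10.3 ± 0.456), each without overlap with its neighbor. In Ts66Yah HIP, Vps26c was at 16.7 ± 1.01 CPM per kilobase and took the eighth place, ahead of Snx1 (16.3), whose range it overlapped, and of Rab5a (12.6).

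In wt EC, Sorl1 (40.3 ± 5.34), Vps26b (30.8), Vps35 (28.2), Vps26a (26.3), Snx2 (22.1) and Snx27 (21.7) formed a chain in which each range overlapped the next. Vps29 was at 16.9, Snx1 at 13.9, Rab5a at 13.1 and Vps26c at 11.7 ± 0.543 CPM per kilobase, and the last 3 overlapped from 1 to the next. In Ts66Yah EC, Vps26c was seventh at 17.4 ± 0.968 CPM per kilobase, with a range that overlapped that of Vps29 (17.3). The exon length is the union over annotated transcripts, which can lower the value of a gene with long alternative transcripts.

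Across the log2 CPM of all 22 libraries, the genes most like Vps26c among 14963 genes with at least 1 CPM were Mrpl39 (r = 0.967), App (0.951) and Cryzl1 (0.951), all of the triplicated segment. Of the 20 most alike, 19 were segment genes. Outside it, the highest values were those of the processed pseudogenes Gm11966 (0.888) and Gm5436 (0.871) and of the growth factor gene Fgf1 (0.809). For Sorl1 the most alike were Ubxn2b (0.861), Med14 (0.856) and Agtpbp1 (0.856). These libraries share genotype, region and mouse, so the values describe likeness of pattern and carry no test.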

How the data were processed

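RNA-Seq was performed on the HIP and EC of 11 mice (22 libraries). Groups, replicate and animal numbers came from the labels. Per the methods, single-end reads of 50 bases were aligned with Hisat2 to GRCm38 and counted with HTSeq-count, versions and strand setting not stated. The submitters' notes name bcl2fastq 2.17.1.14. The labels describe poly(A) selection, whereas the methods also name a ribosomal depletion kit. The authors deposited raw counts per gene, which were analyzed as they stand. Their DESeq2 and FCROS tables hold the authors' own fold changes and p-values and were not used. The number of unmapped count columns was 0.

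Symbols and coordinates came from GENCODE M21 (GRCm38), which matched 55144 of 55385 gene IDs. Counts were tested in R 4.3.3 with the quasi-likelihood test of edgeR 4.0.16 after TMM and filterByExpr, adjusted by Benjamini-Hochberg over all tested genes, threshold 0.05. It was fitted per region for genotype, per genotype for region, and over 22 libraries for the interaction. Departure from 1.5-fold was tested by offsets and adjusted over segment genes. CPM used TMM factors over 22 libraries, and log2 CPM a prior count of 2. The code was tested on simulated data. Between libraries of 1 group the chi-square per gene was at least 9.62, above sampling noise, so each counted once.

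Alternatives were DESeq2 1.42.0, limma 3.58.1 voom, RLE factors, no filter, a filter of 1 CPM in 5 libraries, all libraries in 1 fit, TMM factors without segment genes, an exact permutation test over 462 splits, blocks, and leaving out each library or mouse. HIP and EC libraries of the same animal number deviated together (correlation of deviations 0.21 to 0.45 in 11 mice), so the mouse pairs them. It changed no call of the 10 genes.

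The 10 genes, lists and tests were chosen with earlier results of these data known. Named genes are the 10, the 2 tested segment genes on each side of Vps26c, called list genes or otherwise the smallest p per list and region, the 3 most correlated genes and, between the regions, list genes chosen after their values were seen. Some genes that this rule or the marker lists would name are not reported here.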

Additional observations from a re-analysis of the deposited data

Results flagged for a closer look

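Vps35 was at 305 CPM in wt EC replicate 4, far from the other 4 wt EC libraries, of which the next was at 243 CPM. The gap made up 0.806 of the range of the group. Over the 10 genes and 4 groups, 40 sets of libraries were examined in this way and 1 was flagged, and chance alone flags about 1 in 20. The same library was the highest of its group for Vps26a (90.9 CPM), Vps26b (175 CPM), Snx2 (67.2 CPM), Snx27 (167 CPM), Sorl1 (537 CPM) and Rab5a (74.2 CPM). Its sum of the 4 cortical marker genes was the lowest of the group, at 158 CPM against 208 to 234 CPM. What sets the library apart was not tested.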

How the results depend on the processing

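The genotype call of Vps26c held in all alternatives with an adjusted p, with log2 values of 0.68 to 0.73 (HIP) and 0.56 to 0.60 (EC) when single libraries were left out, and no other of the 10 genes was called for genotype under any of them. Counts over all genes moved more. In the HIP, 109 genes were called, against 369 with DESeq2, 61 with a replicate block and 68 with a block for the animal number range. In the EC, 50 were called, against 109 with DESeq2 and 79 with all 22 libraries in 1 fit. Replicate numbers did not pair wt with Ts66Yah mice (correlation of deviations -0.01 to 0.18), and with that block Vps26c changed by 0.70 in the HIP and 0.57 in the EC. In wt, 5 of the 10 genes were called between the regions, against 3 with no filter on low counts, and 3 to 5 when single mice were left out. The calls lost without the filter were those of Vps26c (adjusted p = 0.0594 by edgeR) and Snx1 (adjusted p = 0.0752 by edgeR). Vps26c passed the unadjusted exact permutation test in both regions (p = 0.00216 in each). By the exact permutation test, unadjusted, Vps29 (p = 0.0195) and Vps26b (p = 0.0433) also passed in the HIP. Rab5a passed the unadjusted exact permutation test in the EC (p = 0.0173). Exact permutation results are given for the 10 genes only, so they cannot be set beside a share of all genes. With the mouse as a block, the interaction of Vps26c kept an adjusted p of 1 by edgeR. Its unadjusted p was 0.0399 with the block and 0.0987 without it, both by edgeR. The cause of these moves was not tested. No value that had passed the test changed its direction. Counts of the 10 genes ran from 949 to 25025 reads per library, and relative counting error is largest at the lowest counts. Vps26c held the lowest in wt (949 in the HIP, 1346 in the EC) and Snx2 in Ts66Yah (1820 and 1557).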
